A study of Homo sapiens with 6 samples.

Results

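The 10 genes described here encode chromatin regulators and a cohesin subunit that carry recurrent mutations in bladder cancer or act with genes that do: KMT2A, KMT2C, KMT2D, KDM6A, ARID1A, STAG2, CREBBP, EP300, ASXL2 and EZH2. They were chosen by name, as the 10 rows with these symbols among 78932 rows of the count table. The choice was made with earlier results of these data known. All 10 passed the filter on low counts (3 or more of the 6 libraries with 10 or more counts each), as did 18474 genes in all. The cells were T24, an established human urothelial carcinoma line. Of the 6 cultures, 3 were transfected with siTRIM28, an siRNA against TRIM28 (the chromatin corepressor and SUMO ligase also called KAP1), and 3 with siNC, a negative control siRNA without a target. The groups shared the line, the medium with fetal bovine serum and antibiotics, and the transfection reagent. The sample titles name no batch, and all 6 cultures were treated here as 1 batch. All values come from 1 line, and the sources used here do not say which TRIM28 siRNA the sequenced cultures received or how long after transfection they were harvested. The labels call the 3 cultures of a group biological replicates without saying how they were kept apart, so the p-values measure the spread between these cultures.

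The genes fall into 6 kinds of machinery. KMT2A, KMT2C and KMT2D are the catalytic subunits of COMPASS-type complexes, which methylate lysine 4 of histone H3 at promoters and enhancers, and KDM6A (UTX) is a demethylase of lysine 27 of histone H3 that sits in the KMT2C and KMT2D complexes. EZH2, the catalytic subunit of Polycomb repressive complex 2 (PRC2), writes the lysine 27 methylation that KDM6A removes. CREBBP and EP300 (CBP and p300) are paralogous histone acetyltransferases of active enhancers. ARID1A is the DNA-binding subunit of the BAF form of SWI/SNF, which remodels nucleosomes. STAG2 is one of the alternative SA subunits of cohesin, the ring that holds sister chromatids and extrudes chromatin loops. ASXL2 activates BAP1 in PR-DUB, the complex that removes ubiquitin from histone H2A. Urothelial tumours are known for frequent inactivating mutations in KDM6A, KMT2D, ARID1A and STAG2.

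The targeted gene followed the labels. TRIM28 was counted 1419, 1393 and 1382 times with siNC but 130, 96 and 109 times with siTRIM28, a log2 fold change of -3.54 (SE 0.0723, edgeR quasi-likelihood test, adjusted p = 1.03e-10, n = 3 per group). The libraries held 11712623 to 14018052 counts. Within each group, 1 pair of cultures differed by little more than sampling noise (chi-square per degree of freedom 1.08 for siNC 1 and 2, and 1.24 for siTRIM28 2 and 3), while the other pairs gave 4.43 to 6.95. Of 14 epithelial and urothelial markers, 5 passed the count filter. All 14 together summed to 190 to 196 CPM (counts per 1000000 counts of the library) in siNC and 212 to 220 CPM in siTRIM28, nearly all from the keratins KRT8 and KRT18. UPK1B was at 0 counts in all 6 libraries, and the uroplakins UPK2 and UPK3A did not pass the filter. A further uroplakin, UPK1A, was low but higher in siTRIM28 (2.90 to 4.14 CPM) than in siNC (0.308 to 1.22 CPM). Other low markers moved in both directions. TP63 was higher in siTRIM28 (0.785 to 1.267 CPM, against 0.287 to 0.646 CPM in siNC). EPCAM was lower (0.143 to 0.256 CPM, against 0.359 to 0.462 CPM in siNC). GATA3 overlapped between groups (0.071 to 0.342 CPM in siTRIM28, 0.308 to 0.718 CPM in siNC). CDH1, KRT5 and KRT14 were at 0.169 CPM or less in every library. Of 7 markers of other cell types, 1 (COL1A1) passed, and all 7 together summed to 1.43 to 1.79 CPM in siNC against 3.50 to 5.12 CPM in siTRIM28. The part of these differences in the results below was not tested.

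After TRIM28 silencing, 6 of the 10 genes rose and none fell. EZH2, KMT2A, KDM6A, KMT2C, STAG2 and EP300 rose, while KMT2D, ARID1A, CREBBP and ASXL2 did not pass the test, and their estimates lay between -0.12 and -0.10. Over all genes tested, 21.3% rose and 20.5% fell at an adjusted p of 0.05 (edgeR with Benjamini-Hochberg adjustment, 41.8% in either direction). The median log2 fold change of the 10 genes was 0.23, beside 0.02 over all genes tested. The changes were small. KDM6A was the sole member that moved by 0.58 or more on the log2 scale, a size that 17.0% of all genes tested passed together with the test. By the levels alone, the 3 siTRIM28 cultures lay above the 3 siNC cultures for 6 genes and below them for 2, and the groups overlapped for KMT2D and ASXL2. Among all genes tested, 26.3% separated upward and 25.7% downward. These are bulk samples, in which a change in the mix of cells and a change in RNA per cell cannot be told apart.

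**Figure D1:**
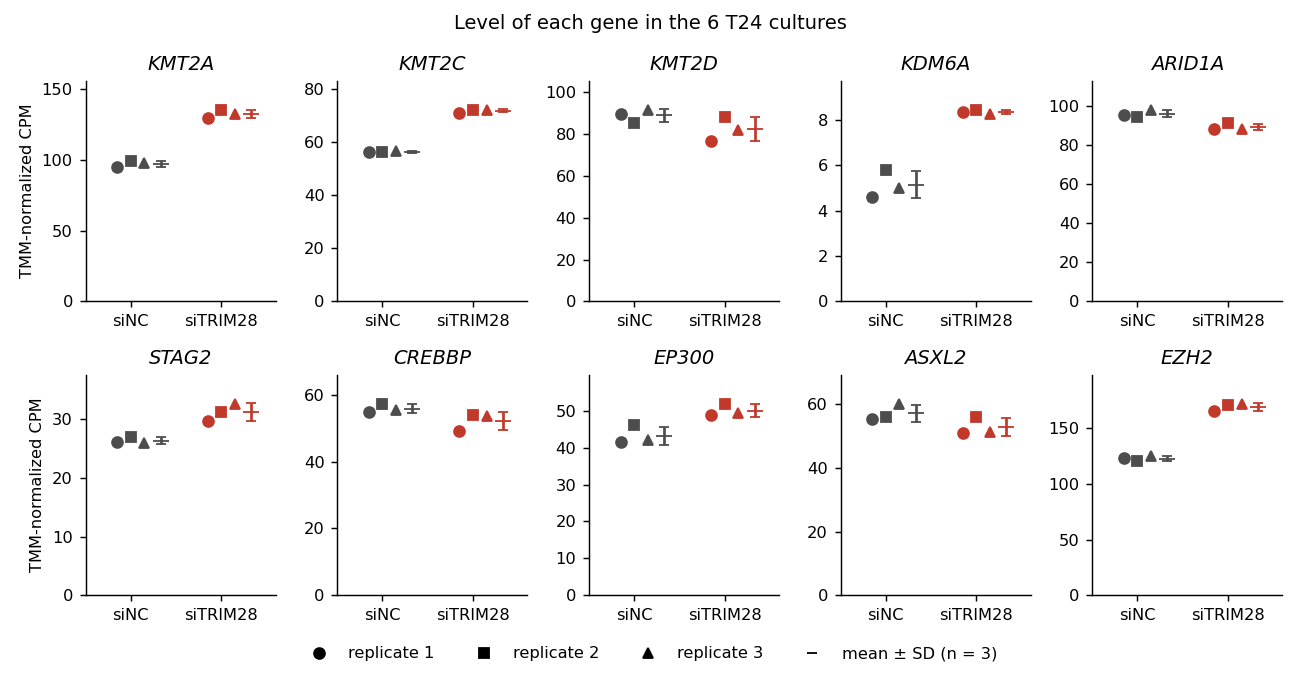
Level of each of the 10 genes in each culture, in CPM on TMM-scaled library sizes (y axis, from 0, a separate scale for each gene), with 1 point per culture (its shape marks the replicate number) and beside it the group mean ± SD (n = 3). The siTRIM28 points of KMT2A (130 to 135 CPM) and EZH2 (165 to 172 CPM) lie above all siNC points, while those of KMT2D and ASXL2 overlap with siNC.

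**Figure D2:**
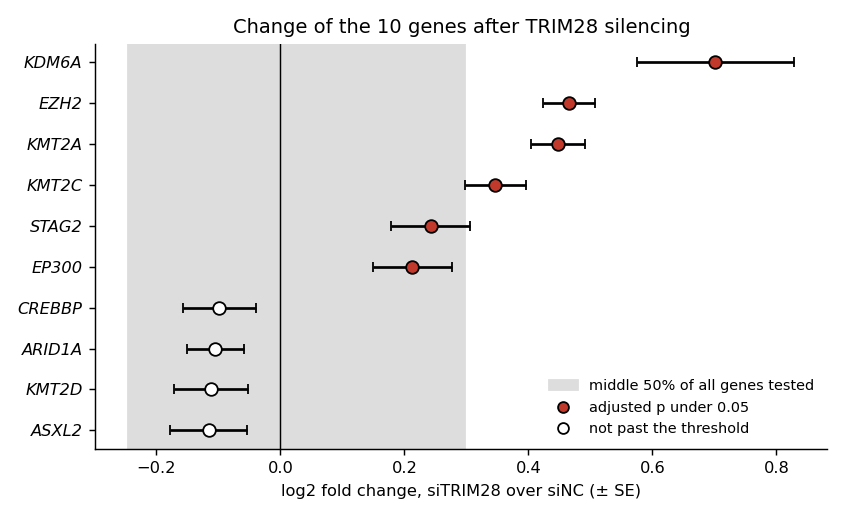
Log2 fold change of siTRIM28 over siNC for each of the 10 genes (x axis) ± its standard error from the edgeR fit, filled where the adjusted p is under 0.05, with the middle 50% of all genes tested in grey. KDM6A has the largest change (0.70) and the widest error (0.127), and the 4 genes that did not pass the test sit between -0.12 and -0.10.

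Among the methyltransferases of lysine 4, KMT2A and KMT2C rose and KMT2D did not pass the test. KMT2A (ENSG00000118058, GRCh38 chr11:118436456-118526832, plus strand), the MLL1 protein best known for its leukaemia fusions, stood at 94.7, 99.1 and 97.8 CPM in siNC (here and below on library sizes scaled by TMM, edgeR's trimmed mean of M-values) and at 130, 135 and 132 CPM in siTRIM28. The groups were far apart relative to their spread, from 97.2 ± 2.23 to 133 ± 2.75 CPM (SD, n = 3 each). KMT2A thus rose by 0.45 on the log2 scale (SE 0.0443, edgeR adjusted p = 9.76e-06). Its span overlaps another row on the same strand, ENSG00000285827 (chr11:118401602-118482737), and 21.5% of the 50-base words of the KMT2A reference transcript also occur in that gene's transcripts. That row rose as well, by 0.30 (SE 0.0411, edgeR adjusted p = 1.32e-04), with 1551, 1555 and 1424 counts in siNC and 1948, 1618 and 1617 in siTRIM28. How shared reads were assigned is not given in the sources used here, so the values of the 2 rows may not be independent.

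KMT2C (ENSG00000055609, chr7:152134922-152436641, minus strand), the MLL3 enhancer methyltransferase, read 56.2, 56.1 and 56.8 CPM in siNC and 71.1, 72.1 and 71.9 CPM in siTRIM28. Each group spanned about 1 CPM or less, and no siTRIM28 culture came near the siNC range. The log2 fold change was 0.35 (SE 0.0495, edgeR adjusted p = 1.69e-04). Of the 50-base words of its transcript, 6.98% also occur in transcripts of 10 other genes, BAGE2 foremost, so part of its count is uncertain. KMT2D (ENSG00000167548, chr12:49018975-49060794, minus strand), the paralogous MLL4 enzyme, gave 89.7, 85.4 and 91.7 CPM in siNC and 76.6, 88.3 and 82.1 CPM in siTRIM28. The groups overlapped, since the highest siTRIM28 culture exceeded the lowest siNC culture. Its log2 fold change of -0.11 (SE 0.0595) did not pass (edgeR adjusted p = 0.157). The 3′ end of the KMT2D span overlaps a same-strand row, ENSG00000288710 (chr12:49002274-49024074), which fell by 0.49 on the log2 scale (edgeR adjusted p = 2.96e-05). Its mean count was 700, beside 1115 for KMT2D. The assignment of shared reads is not given here either. The KMT2D values, and the ratio of KMT2C to KMT2D below, may therefore depend on that row.

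KDM6A (ENSG00000147050, chrX:44873188-45112598, plus strand) had the fewest reads of the 10 genes, with 64, 80 and 64 counts in siNC and 117, 100 and 98 in siTRIM28. On the normalised scale these were 4.61, 5.78 and 5.02 CPM against 8.36, 8.45 and 8.28 CPM. All 3 siTRIM28 cultures lay above the highest siNC culture, and they were closer to each other than the siNC cultures were. The rise was 1.63-fold, a log2 fold change of 0.70 (SE 0.127, edgeR adjusted p = 9.21e-04), and 91.9% of all genes tested had a lower log2 fold change.

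Other COMPASS genes moved in both directions. Of 15 listed partners, all tested, 3 rose, 6 fell and 6 did not pass. Beside this, 21.3% of all genes tested rose and 20.5% fell. The median log2 fold change of the 15 partners was -0.08, and none of them changed by 0.58 or more. MEN1 (menin), which tethers KMT2A and KMT2B to chromatin, fell from 17.3 ± 0.544 to 12.4 ± 1.92 CPM (log2 fold change -0.49, edgeR adjusted p = 0.00204). SETD1A, a catalytic subunit of the SET1 complexes, fell by 0.40 on the log2 scale (edgeR adjusted p = 2.91e-04). KMT2B, the closest paralog of KMT2A, rose from 53.9 ± 1.14 to 64.2 ± 2.49 CPM (log2 fold change 0.25, edgeR adjusted p = 0.00316). KDM6B (JMJD3), the other demethylase of lysine 27, rose by 0.34 (edgeR adjusted p = 0.00511).

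EZH2 (ENSG00000106462, chr7:148807257-148884245, minus strand) had the highest level of the 10 genes, in CPM and per length, and the smallest adjusted p among them. Its levels were 123, 120 and 125 CPM in siNC and 165, 171 and 172 CPM in siTRIM28. Every siTRIM28 culture exceeded every siNC culture by a gap several times wider than either group. The rise was 1.38-fold, from 123 ± 2.41 to 169.5 ± 3.69 CPM, or 0.47 on the log2 scale (SE 0.0418, edgeR adjusted p = 4.46e-06). Of its transcript's 50-base words, 1.39% recur in the pseudogene EZH2P1.

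The other PRC2 genes were mixed. Of 10 tested, 3 rose, 2 fell and 5 did not pass, with a median of 0.06, beside 41.8% of all genes that changed in either direction. Both accessory subunits that passed 0.58 rose. PHF1, a Polycomb-like protein that helps recruit PRC2, went from 12.8 ± 1.00 to 21.4 ± 1.45 CPM (log2 fold change 0.74, edgeR adjusted p = 2.52e-05), and JARID2, a cofactor of the other PRC2 form, from 30.2 ± 3.09 to 47.5 ± 3.15 CPM (0.65, edgeR adjusted p = 6.36e-05). RBBP4, a histone chaperone shared with other complexes, fell by 0.53 on the log2 scale (edgeR adjusted p = 2.50e-06). The other core subunits were named after their values were seen. SUZ12 rose by 0.43 (edgeR adjusted p = 1.23e-04), EED, which reads the lysine 27 mark, fell by 0.39 (edgeR adjusted p = 3.05e-04), and RBBP7, the paralog of RBBP4, was at -0.01 (edgeR adjusted p = 0.941).

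The acetyltransferase paralogs differed, with EP300 higher and CREBBP not past the test. EP300 (ENSG00000100393, chr22:41092510-41176915, plus strand) was at 41.6, 46.1 and 42.0 CPM in siNC and 49.0, 52.0 and 49.4 CPM in siTRIM28. All siTRIM28 cultures were above all siNC cultures. Its log2 fold change was 0.21 (SE 0.0635, edgeR adjusted p = 0.0181). This was the weakest of the 6 calls. DESeq2 gave an adjusted p of 0.066, and the call was also lost without siNC replicate 1 (edgeR adjusted p = 0.0959), without siNC replicate 3 (0.0556), without siTRIM28 replicate 2 (0.0778) and with each close pair of cultures summed (0.0585). CREBBP (ENSG00000005339, chr16:3725054-3880120, minus strand) was at 54.8, 57.3 and 55.3 CPM in siNC and 49.0, 54.0 and 53.5 CPM in siTRIM28. The groups were apart by less than 1 CPM, with siTRIM28 lower, and the log2 fold change of -0.10 (SE 0.0596) did not pass (edgeR adjusted p = 0.213).

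Of 12 other acetyltransferases and partners of CBP and p300, 1 rose, 5 fell and 6 did not pass, with a median of -0.21. Among all genes tested, 21.3% rose and 20.5% fell. KAT6A, an acetyltransferase of histone H3, fell from 152 ± 3.39 to 103 ± 2.07 CPM (log2 fold change -0.56, edgeR adjusted p = 1.29e-06), and its paralog KAT6B from 63.0 ± 2.01 to 41.6 ± 3.05 CPM (-0.60, edgeR adjusted p = 2.22e-05). NCOA2, a steroid receptor coactivator that binds both acetyltransferases, fell by 0.90 on the log2 scale (edgeR adjusted p = 2.70e-06).

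ARID1A (ENSG00000117713, chr1:26693236-26781180, plus strand) did not pass the test. It stood at 95.1, 94.5 and 97.9 CPM in siNC and at 88.0, 91.1 and 88.2 CPM in siTRIM28. The groups did not overlap, and siTRIM28 was lower, by 0.11 on the log2 scale (SE 0.0459, edgeR unadjusted p = 0.0416, adjusted p = 0.0871).

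Around ARID1A, the SWI/SNF list, the longest of the partner lists, had the most genes that fell. The acetyltransferase list had a lower median (-0.21). Of 23 subunits tested, 12 fell, 2 rose and 9 did not pass, with a median of -0.16, beside 20.5% of all genes that fell. All 7 subunits with a change of 0.58 or more fell. The core scaffold SMARCC1 (BAF155) had 344, 344 and 358 CPM in siNC and 161, 151 and 154 CPM in siTRIM28. Its siTRIM28 cultures were below the midpoint between 0 and the siNC mean, and the log2 fold change was -1.17 (SE 0.0417, edgeR adjusted p = 5.80e-09). BCL7B, a small accessory subunit, fell from 50.3 ± 1.89 to 17.2 ± 1.45 CPM (-1.55, edgeR adjusted p = 3.50e-08), and its paralog BCL7C from 20.1 ± 1.76 to 8.99 ± 1.07 CPM (-1.15, edgeR adjusted p = 3.55e-06). A further paralog, BCL7A, named after its values were seen, did not pass (0.10, edgeR adjusted p = 0.405). SMARCD1 fell by 0.82 on the log2 scale, BRD9 by 0.80, DPF2 by 0.75 and BICRAL by 0.68. BRD9 and BICRAL mark the non-canonical BAF form, which lacks ARID1A, and DPF2 the canonical form, which holds it. ARID1B, the paralog that can take the place of ARID1A, fell from 82.6 ± 3.70 to 66.0 ± 2.56 CPM (-0.32, edgeR adjusted p = 6.13e-04). The 2 subunits that rose were PBRM1, which marks the PBAF form (0.27, edgeR adjusted p = 0.00211), and SMARCD2 (0.18, edgeR adjusted p = 0.0474). The ATPases SMARCA4 (0.14, edgeR adjusted p = 0.0766) and SMARCA2 (-0.09, edgeR adjusted p = 0.110) did not pass. These 4 genes were named after their values were seen.

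STAG2 (ENSG00000101972, chrX:123960212-124422664, plus strand) rose while its paralog STAG1 fell. STAG2 was at 26.1, 27.0 and 25.9 CPM in siNC and at 29.6, 31.2 and 32.7 CPM in siTRIM28. The groups did not overlap, and the log2 fold change was 0.24 (SE 0.0645, edgeR adjusted p = 0.0101). DESeq2 did not call it (adjusted p = 0.0691). In edgeR the call passed narrowly with each close pair of cultures summed (adjusted p = 0.0485). The same held without siNC replicate 1 (edgeR adjusted p = 0.0460) and without siTRIM28 replicate 3 (0.0449). STAG1, the other SA subunit of somatic cohesin, on which cells without STAG2 depend, was at 78.8, 75.3 and 75.7 CPM in siNC and 53.3, 51.6 and 53.5 CPM in siTRIM28. Its groups lay far apart, with a log2 fold change of -0.54 (SE 0.0517, edgeR adjusted p = 7.86e-06).

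Of 16 other cohesin genes, 6 rose, 7 fell and 3 did not pass, with a median of 0.02. The shares over all genes tested were 21.3% higher and 20.5% lower. CDCA5 (sororin), which keeps replicated cohesin closed on chromatin, fell from 34.7 ± 0.635 to 14.1 ± 0.393 CPM (log2 fold change -1.30, edgeR adjusted p = 4.74e-08). NIPBL, the loader of cohesin, rose from 167 ± 1.27 to 225 ± 5.92 CPM (0.43, edgeR adjusted p = 5.78e-06), and SGO1 (shugoshin), the protector of centromeric cohesin, rose by 0.60 (edgeR adjusted p = 5.39e-05). The ring subunits, named after their values were seen, moved little. SMC3 rose by 0.24 (edgeR adjusted p = 2.58e-04) and SMC1A by 0.17 (edgeR adjusted p = 0.00893), and RAD21 was at 0.04 (edgeR adjusted p = 0.416).

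ASXL2 (ENSG00000143970, chr2:25733753-25878466, minus strand) gave 55.4, 56.0 and 60.3 CPM in siNC and 51.1, 56.1 and 51.3 CPM in siTRIM28. The highest siTRIM28 culture lay within the siNC range, and the log2 fold change of -0.12 (SE 0.0622) did not pass (edgeR adjusted p = 0.159). Of 9 other PR-DUB genes, 8 were tested (ASXL3 was not), of which 2 rose, 1 fell and 5 did not pass, with a median of 0.02. The share of all genes that changed in either direction was 41.8%. OGT, the O-GlcNAc transferase bound to the complex, rose from 177 ± 3.70 to 268 ± 11.9 CPM (0.60, edgeR adjusted p = 9.34e-07). FOXK2, a forkhead factor that recruits BAP1, fell by 0.21 on the log2 scale (edgeR adjusted p = 0.0117), and MBD5, a subunit with a methyl-CpG-binding-type domain, rose by 0.28 (edgeR adjusted p = 0.0241). The PR-DUB count fell from 3 changed genes to 1 without siNC replicate 2. ASXL1, the main paralog of ASXL2, was at 0.04 (edgeR adjusted p = 0.566).

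**Figure D3:**
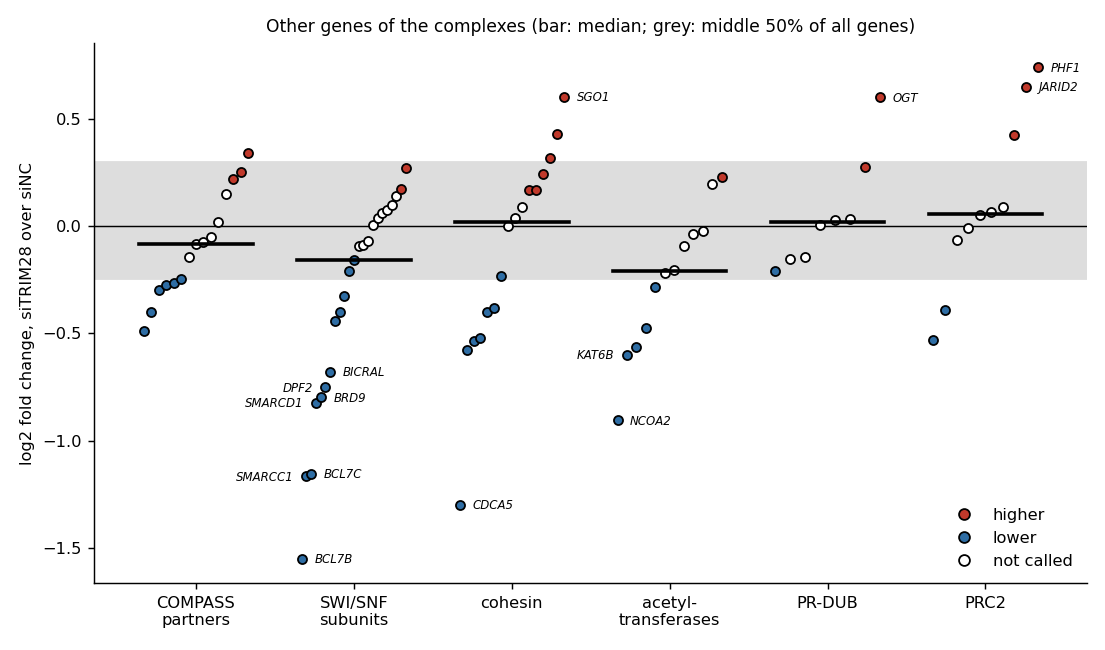
Log2 fold change of siTRIM28 over siNC (y axis) for the 84 tested partner genes in 6 lists, with 1 point per gene, coloured by whether it rose, fell or did not pass the edgeR test, a bar at each list's median and grey for the middle 50% of all genes tested. The SWI/SNF points reach down to BCL7B at -1.55, and its median is -0.16, while the PRC2 points reach up to PHF1 at 0.74.

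Because several of these proteins take the place of a paralog in the same complex, the log2 ratio of both paralogs was compared within each culture, where library scaling cancels apart from the prior count. An exact two-sided permutation test of 3 against 3 cultures cannot go below p = 0.1, so no pair could pass 0.05. In 7 of 8 pairs the ratios of the siTRIM28 cultures did not overlap with those of the siNC cultures (exact permutation p = 0.1 each, 0.114 adjusted over the 8 pairs). Among single genes, 52.0% separated in either direction, and the share over other pairs of genes was not computed, so nothing particular to these pairs is read from the count. The STAG2 to STAG1 ratio shifted most. It was -1.59, -1.47 and -1.54 in siNC and -0.84, -0.72 and -0.71 in siTRIM28, a shift of 0.78 towards STAG2. STAG1 still had the higher count in every culture. KMT2C shifted against KMT2D by 0.46, from a mean log2 ratio of -0.66 ± 0.0447 to -0.20 ± 0.0918 (SD, n = 3). EZH2 gained 0.38 on EZH1, from 1.94 ± 0.0883 to 2.32 ± 0.0848. EZH1, the PRC2 enzyme of resting cells, did not itself pass the test (log2 fold change 0.09, edgeR adjusted p = 0.339). KDM6A gained 0.36 on KDM6B, ARID1A gained 0.22 on ARID1B and KMT2A gained 0.20 on KMT2B. The CREBBP to EP300 ratio moved the other way, from 0.37 ± 0.0463 to 0.06 ± 0.0579, and in the first siTRIM28 culture both genes had 686 counts. The ASXL2 to ASXL1 ratio overlapped between groups (shift of -0.15, exact permutation p = 0.3).

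**Figure D4:**
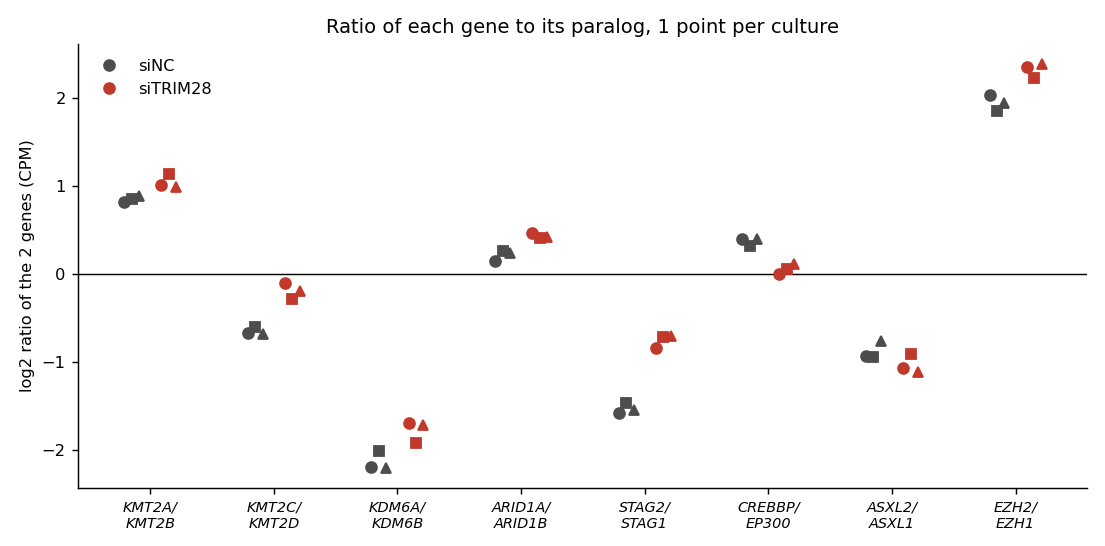
Log2 ratio of the levels of 8 paralog pairs in each culture (y axis, from CPM), with 1 point per culture, siNC in grey and siTRIM28 in red, and its shape marking the replicate number. The STAG2 to STAG1 points move from between -1.59 and -1.47 to between -0.84 and -0.71, and the ASXL2 to ASXL1 points overlap.

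Between genes, levels can be compared per length only. Divided by the gene length in the count table (RPKM, the CPM per kilobase), the siNC levels ranged from 11.4 ± 0.223 for EZH2 to 0.185 ± 0.0214 for KDM6A. In between lay ARID1A at 5.71, ASXL2 at 4.32, EP300 at 3.67, CREBBP at 3.61, KMT2D at 3.50, KMT2A at 3.09, STAG2 at 1.65 and KMT2C at 1.06 RPKM. EP300 overlapped with CREBBP and CREBBP with KMT2D over the 3 cultures, and the other neighbours in this order did not overlap. In siTRIM28 the order of the middle changed. EP300 (4.26) and KMT2A (4.21) came before ASXL2 (3.99), and in this run of genes each overlapped the next. Lengths of this kind usually sum all annotated exons of a gene. With the length of the GENCODE transcript that has the longest coding sequence, an alternative added after seeing the data, EZH2 (46.5), ARID1A (11.2), KMT2C (3.34) and KDM6A (0.867) kept their places in siNC, while ASXL2 dropped from rank 3 to rank 8 (4.44) and KMT2A moved up from rank 7 to rank 3 (5.85).

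An siRNA can lower other transcripts that match its seed (bases 2 to 8 of the guide strand) in their 3′ UTR. The study's 2 TRIM28 siRNAs match TRIM28 transcripts in full, and the complements of their seeds are ATGTGCA for siTRIM28-1 and TCCTGTC for siTRIM28-2. Over 12119 tested genes with a 3′ UTR in GENCODE release 29, 18.0% held TCCTGTC. Of these, 42.2% fell and 14.7% rose, with a median log2 fold change of -0.16, against 22.9% that fell among genes without it, with a median of 0.00495. ATGTGCA was in 15.3%, of which 28.3% fell and 22.6% rose, against 26.0% that fell among genes without it. The medians were -0.03 with it and -0.02 without. No test was run on these shares, and a match is a run of letters, not a shown site.

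Of the 10 genes, ASXL2 alone held TCCTGTC, and none of the 6 that rose did. STAG2 alone held ATGTGCA, once. The matches are printed with the seed complement in capitals, on the transcript strand, together with those of SMARCC1 and CDCA5, partners that fell strongly.
ASXL2 chr2:25739767-25739791: tttaccttttTCCTGTCagaaaggt
ASXL2 chr2:25735599-25735623: aatgcagcttTCCTGTCactgttca
ASXL2 chr2:25733874-25733898: ttgtcttcttTCCTGTCacttttag
STAG2 chrX:124102201-124102225: aaatattgttATGTGCAaaagtatt
SMARCC1 chr3:47587899-47587923: tctctgcaggTCCTGTCaactttag
CDCA5 chr11:65079057-65079081: agactctcccTCCTGTCctgtacat
CDCA5 chr11:65078874-65078898: ctcactggtgTCCTGTCtcttgtcg
CDCA5 chr11:65078859-65078883: tctcttgtcgTCCTGTCcttcctat
ASXL2, with 3 matches, did not pass the test, and neither did EZH1, which also holds 3.

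The partners with and without a match are given side by side. Of the 84 partner genes tested, 21 held TCCTGTC, and 13 of them fell and 2 rose, with a median of -0.44. Of the 63 without it, 20 fell and 15 rose, with a median of -0.01. Among all tested genes with a 3′ UTR, 42.2% of those with TCCTGTC and 22.9% of those without it fell. In the SWI/SNF list, 8 of 23 subunits held it and 6 of those fell (SMARCC1, SMARCD1, BRD9, DPF2, BICRAL and ARID2, the last named after its values were seen), with a median of -0.72. The 15 subunits without it had a median of -0.07, with 6 lower and 2 higher. BCL7B and BCL7C, which fell by more than 1 on the log2 scale, had no match, and neither did STAG1. The part of seed matches in these changes was not tested, and the siRNA of these cultures is not named.

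Each of the 10 genes had a promoter window with 27 or more CpG dinucleotides, the known mark of CpG island promoters. RefSeq start sites (GRCh38.p14) gave 15 windows of 300 bases for the 10 genes, from 250 bases before to 50 after the start, among 35116 windows of 27305 genes with a median GC content of 58.7% and a median of 14 CpG. The KMT2D window, with 27 CpG, was at percentile 71.8 of all windows by CpG number. A second ASXL2 window had 2 CpG, and further STAG2 windows had 17 and 16. EZH2, with the smallest adjusted p, and KDM6A, with the largest change, are shown on the transcript strand with CCAAT on either strand (CCAAT or ATTGG) and TTTGGCGC, an E2F-type word, in capitals.
EZH2 chr7:148884242-148884541, minus strand: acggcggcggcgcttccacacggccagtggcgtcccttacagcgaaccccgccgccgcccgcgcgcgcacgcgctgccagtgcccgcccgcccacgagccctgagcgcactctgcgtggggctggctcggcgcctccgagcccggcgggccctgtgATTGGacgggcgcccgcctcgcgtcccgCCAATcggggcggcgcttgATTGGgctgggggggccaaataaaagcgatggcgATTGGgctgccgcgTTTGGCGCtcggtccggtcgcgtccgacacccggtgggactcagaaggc
KDM6A chrX:44872938-44873237, plus strand: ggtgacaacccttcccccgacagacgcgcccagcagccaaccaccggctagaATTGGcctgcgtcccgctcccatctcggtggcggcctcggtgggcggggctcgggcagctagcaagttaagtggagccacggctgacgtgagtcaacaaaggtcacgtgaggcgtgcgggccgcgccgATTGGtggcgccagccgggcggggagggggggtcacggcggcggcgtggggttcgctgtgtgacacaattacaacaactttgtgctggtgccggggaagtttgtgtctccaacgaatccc
The EZH2 window had 74.7% GC, 46 CpG, 4 CCAAT words and 1 TTTGGCGC. The KDM6A window had 66.3% GC, 29 CpG and 2 CCAAT words. In all, 4 words were searched on both strands. TTTGGCGC was in 2 of the 15 windows (1 of EZH2 and 1 of STAG2) and in 0.652% of all windows. TTTCCCGC, another E2F-type word, was in 0 of the 15 and in 1.63% of all. CCAAT was in 5 of the 15, from 4 genes including ASXL2, which did not pass the test, and in 34.6% of all. GCGCATGC, an NRF1-type word, was in 1 of the 15 (ASXL2) and in 3.05% of all. These words are descriptions of the letters in the windows and were not tied to binding in these cells.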

How the data were processed

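Polyadenylated RNA of 6 T24 cultures was made into libraries with a stranded kit. Per the labels and the submitters' processing notes, the authors trimmed reads with fastp 0.23.1, aligned them to GRCh38 with STAR 2.7.6a and counted them with featureCounts, and the deposited values are whole-number counts per gene. The annotation release, the strand setting and the treatment of shared reads are not given in the sources used here. A second deposited table, of RPKM values for genes the authors called changed, holds none of the 10 genes and was not used.

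Genes that reached 10 counts in 3 or more of the 6 libraries were tested with edgeR 4.0.16 (R 4.3.3, TMM scaling, quasi-likelihood F-test, condition only) and Benjamini-Hochberg adjustment over all 18474 genes tested, with a threshold of 0.05. CPM and RPKM were computed from the counts on TMM-scaled library sizes. Library totals of 11712623 to 14018052 counts limit the precision for genes such as KDM6A. Paralog log2 ratios used a prior count of 2 and an exact permutation test. Alternatives were DESeq2 1.42.0, limma-voom (limma 3.58.1), other scalings, no filter, a replicate block, leaving out each culture, summing the close pairs and, for the ratios, a prior count of 0.5. The scripts were tested on simulated data.

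Sequences came from GENCODE release 29 transcripts and the RefSeq promoter table. The members and the lists of partners were chosen with earlier results of these data known. The text names all members and their paralogs, the 3 partners of each list with the smallest adjusted p and any other partner that passed and moved by 0.58 or more on the log2 scale in either direction. Genes beyond this rule are marked. Same-numbered cultures were not paired, as the correlations of their deviations were 0.0523, -0.0118 and 0.0374.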

Additional observations from a re-analysis of the deposited data

How the results depend on the processing

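The number of the 10 genes that changed was 6, all higher, under RLE, upper-quartile and total-count scaling, without the filter, with the replicate block and with limma-voom. DESeq2 called 4, without STAG2 and EP300 (log2 fold changes 0.24 and 0.21). Leaving out 1 culture at a time gave 5 to 6, and summing the close pairs gave 5. EP300 was the call lost each time. With the close pairs summed, the adjusted p-values of the other calls were larger. The edgeR adjusted p was then 0.00155 for EZH2, 0.00195 for KMT2A, 0.00738 for KDM6A, 0.00795 for KMT2C and 0.0485 for STAG2. The median of the 10 genes ranged from 0.20 to 0.26. With the replicate block, 7910 of all genes changed, against 7723 without it, and it changed no call among the 10 genes; the cultures shared only a number. The count over all genes ranged from 5878 with DESeq2 to 8130. That of the partners ranged from 42 to 53 (50 of 84 tested as reported, beside 41.8% of all genes). The PR-DUB count of 3 changed genes fell to 1 with the close pairs summed and ranged from 1 to 4 when 1 culture was left out, with the lowest value without siNC replicate 2. Under upper-quartile scaling, 56.6% of the changed genes were higher, against 51.1%, and the median of all genes was 0.05. Without siTRIM28 replicate 2, the shift of KMT2A against KMT2B was 0.15 and that of KMT2C against KMT2D 0.51 and that of ASXL2 against ASXL1 -0.21, which was -0.09 without siNC replicate 3. The number of separate pairs was 7 to 8 when 1 culture was left out. Without siTRIM28 replicate 1, KMT2D was at -0.06 and CREBBP at -0.05, and without siTRIM28 replicate 2 KMT2D was at -0.17; neither passed in any setting run. The causes were not tested. With 3 cultures per group from 1 line, the changes of ARID1A, KMT2D, CREBBP and ASXL2 could not be told from 0 by the test used.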
